A study of Homo sapiens with 6 samples.

Results

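The adrenergic core transcription factors examined here were PHOX2A, HAND1, HAND2, GATA2, GATA3, ISL1, LMO1 and INSM1, chosen by gene name from a table of RNA levels in neuroblastoma cell lines. Each of the 8 genes had a locus of its own among 19170 loci, of which 16223 carry a gene name. RNA was sequenced from 6 established human neuroblastoma lines to compare lines with and without amplification of MYCN, the gene of the transcription factor N-Myc. The MYCN-amplified lines were BE(2)-C and SK-N-DZ, grown in DMEM, and Kelly and CHP134, grown in RPMI. The MYCN-non-amplified lines were SK-N-AS and SY5Y (SH-SY5Y), both grown in DMEM, and all 6 media held 10% fetal calf serum. Non-essential amino acids were added for SK-N-DZ and SK-N-AS, and L-glutamine for Kelly and CHP134. Each line gave 1 library, so that the lines are the replicates of a group and no spread within a line is known. BE(2)-C is a clone of the SK-N-BE(2) line and SY5Y a subline of SK-N-SH, and each line stands for 1 tumor.

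Neuroblastoma arises from sympathoadrenal cells of the neural crest, and most of its cells are in an adrenergic state, held by a circuit of transcription factors that bind their own and each other's enhancers. PHOX2A is a paired-type homeodomain protein that specifies noradrenergic neurons, and ISL1 is a LIM-homeodomain protein of sympathetic and motor neurons. HAND1 and HAND2 are basic helix-loop-helix proteins, GATA2 and GATA3 are zinc finger proteins of sympathetic and blood cells, INSM1 is a zinc finger repressor of neuroendocrine cells, and LMO1 is a LIM-only protein that binds no DNA itself and bridges other factors.

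The promoters of 4 of the genes are shown first, because 3 of them face the start of a noncoding gene and the fourth, LMO1, is rich in the core of homeodomain sites. A GATA2 start also faces a start of the noncoding gene GATA2-AS1, 673 bases away, but its window is not printed. Homeodomain proteins bind TAAT, GATA factors GATA, and helix-loop-helix proteins CANNTG, of which MYC proteins prefer CACGTG. Each motif was searched on both strands, and matches could overlap. Sequences are the 250 bases before a RefSeq start site on GRCh38.p14, written 5′ to 3′ on the strand of the gene, with TAAT or its reverse complement ATTA in capitals. HAND2 is at chr4:173530230-173530479 (minus strand), ISL1 at chr5:51383198-51383447 (plus strand), GATA3 at chr10:8053391-8053640 (plus strand, the one of its 6 windows that faces the noncoding start most closely) and LMO1 at chr11:8268788-8269037 (minus strand, chosen after its matches were counted).
HAND2: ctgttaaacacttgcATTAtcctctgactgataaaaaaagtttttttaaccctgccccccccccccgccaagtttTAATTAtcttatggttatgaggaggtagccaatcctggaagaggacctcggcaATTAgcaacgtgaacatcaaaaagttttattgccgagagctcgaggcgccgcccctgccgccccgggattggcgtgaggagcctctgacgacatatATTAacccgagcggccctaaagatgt
ISL1: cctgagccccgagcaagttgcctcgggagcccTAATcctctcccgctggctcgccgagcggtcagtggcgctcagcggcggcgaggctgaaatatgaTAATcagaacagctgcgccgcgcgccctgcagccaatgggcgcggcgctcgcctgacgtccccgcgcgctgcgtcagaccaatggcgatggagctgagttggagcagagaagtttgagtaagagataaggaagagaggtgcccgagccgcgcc
GATA3: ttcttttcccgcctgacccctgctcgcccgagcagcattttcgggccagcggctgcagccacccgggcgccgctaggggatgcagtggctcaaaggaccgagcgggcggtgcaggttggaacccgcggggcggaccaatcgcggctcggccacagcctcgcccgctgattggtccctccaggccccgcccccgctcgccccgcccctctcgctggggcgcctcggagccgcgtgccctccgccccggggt
LMO1: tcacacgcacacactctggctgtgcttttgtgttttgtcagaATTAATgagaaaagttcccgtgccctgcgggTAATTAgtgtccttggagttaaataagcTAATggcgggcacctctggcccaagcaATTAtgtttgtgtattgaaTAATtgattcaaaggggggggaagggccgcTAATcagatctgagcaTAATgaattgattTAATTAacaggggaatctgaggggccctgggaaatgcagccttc

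The LMO1 window held 11 TAAT matches, some of them overlapping, and 0.165% of 35116 RefSeq windows of the same length held as many. HAND2 had 5 matches, reached by 6.16% of windows, ISL1 had 2, reached by 27.6%, and the GATA3 window had 0, while 47.4% of all windows had at least 1. GC content, which differs between the windows and bears on such counts, was 45.6% for LMO1, 49.6% for HAND2, 65.2% for ISL1 and 74.8% for GATA3. GATA was found 3 times before HAND2, 2 times each before ISL1, HAND1 and PHOX2A and 0 times before LMO1, and 45.6% of all windows had at least 1 match. CANNTG was found in 61.8% of windows and CACGTG in 6.34%. CACGTG occurred in 1 of the 13 windows of these genes, at another GATA3 start (chr10:8050986-8051235, plus strand). A match is a run of letters and not evidence of binding, and no binding was measured. INSM1 was not among the 7 genes matched in the promoter table.

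RNA levels are given as FPKM, read fragments scaled to transcript length and library size. The deposited table does not name its unit, which was read from its values, and sequencing depth is unknown, so that no counting interval can be given. Between 11363 and 12120 named loci were at 1 FPKM or more in each library. The labels of the groups were checked on MYCN, which had 774 FPKM in Kelly, 571 in BE(2)-C, 184 in SK-N-DZ and 505 in CHP134, against 0.921 in SY5Y and 0.208 in SK-N-AS. The 8 adrenergic markers had a summed level of 1836 FPKM in Kelly, 1061 in BE(2)-C, 263 in SK-N-DZ and 591 in CHP134, against 588.5 in SY5Y and 164.5 in SK-N-AS. CHGA made up most of the sum in Kelly, at 1291 FPKM. Single markers differed in which lines were low. SY5Y was the lowest line for 3 of the 8 (TH at 0.0326 FPKM, PRPH at 0.898 and CHGA at 85.2). SK-N-AS was the lowest for 3 (ELAVL4, GAP43 and STMN2), CHP134 for DBH and SK-N-DZ for CHGB. TH had 72.5 FPKM in Kelly and at most 0.922 in any other line. DBH, the enzyme that makes noradrenaline, had 122 FPKM in Kelly, 11.2 in BE(2)-C, 24.9 in SK-N-DZ and 0.096 in CHP134, against 73.4 in SY5Y and 0.347 in SK-N-AS. It was near 0 in CHP134 and in SK-N-AS, whereas the neuronal markers ELAVL4 (220.4 FPKM) and PRPH (58.6 FPKM) were highest in CHP134. The 10 mesenchymal-state markers had a summed level of 18.9 to 122 FPKM in MYCN-amplified lines, against 399 in SY5Y and 769 in SK-N-AS. VIM made up most of the last 2 sums, at 386 FPKM in SY5Y and 612 in SK-N-AS. Of the 10 markers SK-N-AS was highest for 8 and SY5Y for 0. FN1 was highest in SK-N-DZ (19.3 FPKM) and SNAI2 in BE(2)-C (4.61 FPKM). SK-N-AS had 45.7 FPKM of PRRX1, a mesenchymal regulator, and no other line more than 1.95. SK-N-AS alone also had the blood cell gene PTPRC at 108 FPKM, against at most 0.0658 in the other lines. PTPRC was the only 1 of 6 blood cell genes looked up that had a locus, so that no cell type can be read from it. In RNA from a whole culture, fewer cells with a transcript and less of it per cell cannot be told apart, and the part of these markers in the results below was not tested.

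None of the 8 factors separated the MYCN groups by the test. A locus was called when its log2 fold change exceeded 1 in size and limma's p, adjusted by Benjamini-Hochberg, was under 0.05. The 12870 named loci that reached 1 FPKM in 2 or more lines were tested. All 8 factors passed that minimum, but INSM1 did so through MYCN-amplified lines alone. By limma 0 of 8 factors were called higher in MYCN-amplified lines, where 0.14% of all tested loci were, and 0 of 8 were called lower, where 0.365% were. At an unadjusted p below 0.05, 1 factor (INSM1) was higher, against 5.48% of loci, and 0 were lower, against 9.46%. INSM1 was also the 1 factor whose 4 MYCN-amplified lines all lay above both others, a pattern of 10.5% of loci, and 0 factors lay below in all 4, a pattern of 16.4%. The median log2 fold change was -0.04 over the 8 factors and -0.09 over all tested loci, and 4 of 8 factors had a positive value against 44.4% of loci. What the factors showed was spread between single lines. Their levels differed at least 16-fold between the highest and the lowest line, on FPKM + 0.5, in 2 factors (HAND1 and INSM1), against 6.22% of loci, and at least 4-fold in 6, against 28.3%. The median log2 range over the 6 lines was 3.42 for the factors and 1.41 for all tested loci.

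**Figure D1:**
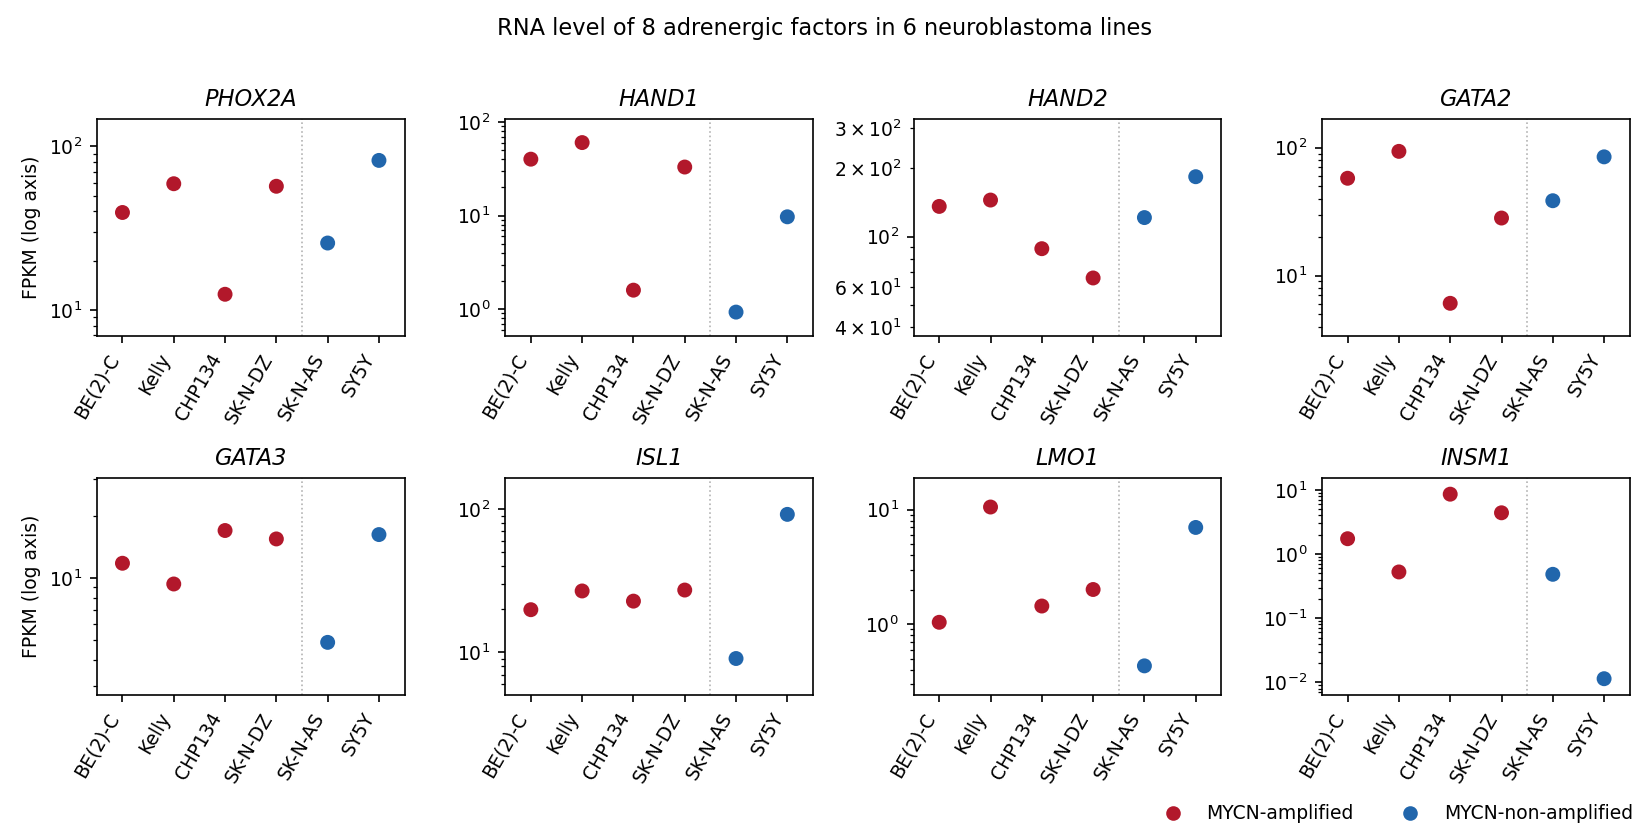
FPKM (log axis, with its own range in each panel) of the 8 factors in the 6 lines, MYCN-amplified lines in red and MYCN-non-amplified lines in blue, 1 library a point. INSM1 is the only factor whose red points all lie above both blue points, and HAND1 is at 1.60 FPKM in CHP134 and 0.931 in SK-N-AS.

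The homeodomain genes were PHOX2A and ISL1. PHOX2A (hg19 chr11:71950121-71956708, minus strand) had 59.1 FPKM in Kelly, 39.4 in BE(2)-C, 57.0 in SK-N-DZ and 12.4 in CHP134, against 82.1 in SY5Y and 25.6 in SK-N-AS. The groups overlapped, SY5Y being the highest of all lines and CHP134 the lowest, 2.06-fold under SK-N-AS. The log2 fold change was -0.35 (SE 0.71, limma adjusted p = 0.845), and it was 0.15 without CHP134, 0.48 without SY5Y and -1.18 without SK-N-AS. The table lists PHOX2A in 1 span with INPPL1, a lipid phosphatase gene that shares 71 bases with it and stayed between 8.25 and 15.8 FPKM. The library kit did not mark strand, so that reads in such overlaps cannot be assigned to either gene.

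ISL1 (hg19 chr5:50679282-50690564, plus strand) had 26.8 FPKM in Kelly, 19.9 in BE(2)-C, 27.2 in SK-N-DZ and 22.8 in CHP134, against 91.9 in SY5Y and 9.06 in SK-N-AS. The MYCN-amplified lines lay close together, within 19.9 to 27.2 FPKM, and the MYCN-non-amplified lines held both the lowest and the highest value. SY5Y was 3.38-fold above the next line and SK-N-AS 2.19-fold below. The log2 fold change was small against its error (-0.28, SE 0.78, limma adjusted p = 0.889). Without SY5Y it was 1.36, and without SK-N-AS it was -1.92.

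The helix-loop-helix genes differed from each other in how much they varied. HAND2 (hg19 chr4:174446120-174451380, minus strand) had 145 FPKM in Kelly, 136 in BE(2)-C, 65.8 in SK-N-DZ and 88.5 in CHP134, against 183 in SY5Y and 121 in SK-N-AS. It was the most abundant of the 8 factors per length in each of the 6 lines, and it varied least, by 2.79-fold. HAND1 (hg19 chr5:153854532-153857787, minus strand) had 60.4 FPKM in Kelly, 40.1 in BE(2)-C, 33.1 in SK-N-DZ and 1.60 in CHP134, against 9.72 in SY5Y and 0.931 in SK-N-AS. BE(2)-C, Kelly and SK-N-DZ were high, SY5Y intermediate and CHP134 and SK-N-AS low, so that the groups overlapped through CHP134. The log2 fold change was 2.42 for HAND1 (SE 1.40, limma adjusted p = 0.452) and -0.53 for HAND2 (SE 0.39, limma adjusted p = 0.553). That of HAND2 was -0.23 without SY5Y, -0.31 without SK-N-DZ and -0.82 without SK-N-AS. That of HAND1 was 3.51 without CHP134, 3.84 without SY5Y and 0.9999 without SK-N-AS. HAND1 made up 29.4% of the summed FPKM of both genes in Kelly, 22.8% in BE(2)-C, 33.5% in SK-N-DZ and 1.77% in CHP134, against 5.03% in SY5Y and 0.762% in SK-N-AS. CHP134 and SK-N-AS thus had HAND2 RNA with little HAND1 RNA.

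The 2 GATA genes did not run in parallel. GATA2 (hg19 chr3:128198270-128212044, minus strand) had 93.5 FPKM in Kelly, 57.6 in BE(2)-C, 28.2 in SK-N-DZ and 6.07 in CHP134, against 84.7 in SY5Y and 38.5 in SK-N-AS. CHP134 was 4.64-fold under the next lowest line. GATA3 (hg19 chr10:8087341-8117161, plus strand) had 9.36 FPKM in Kelly, 11.8 in BE(2)-C, 15.5 in SK-N-DZ and 17.0 in CHP134, against 16.2 in SY5Y and 4.88 in SK-N-AS. Here CHP134 was the highest line, by 1.05-fold over SY5Y, and SK-N-AS the lowest. GATA2 made up 90.9% of the summed FPKM of both genes in Kelly, 83.0% in BE(2)-C, 64.6% in SK-N-DZ and 26.3% in CHP134, against 83.9% in SY5Y and 88.7% in SK-N-AS. CHP134 was the only one of the 6 lines with more GATA3 than GATA2 per length. The MYCN groups overlapped for both genes (GATA2: log2 fold change -0.86, SE 0.98, limma adjusted p = 0.709, and GATA3: log2 fold change 0.52, SE 0.49, limma adjusted p = 0.652). The value of GATA2 was -0.096 without CHP134, -0.29 without SY5Y, -1.38 without Kelly and -1.42 without SK-N-AS. That of GATA3 was -0.30 without SK-N-AS and 1.33 without SY5Y.

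LMO1 (hg19 chr11:8245856-8290263, minus strand) had 10.6 FPKM in Kelly, 1.04 in BE(2)-C, 2.01 in SK-N-DZ and 1.44 in CHP134, against 6.999 in SY5Y and 0.432 in SK-N-AS. Kelly and SY5Y, 1 line of each group, stood 3.48-fold or more above the other 4. The log2 fold change was 0.19 (SE 1.03, limma adjusted p = 0.946), but it was -0.43 without Kelly, -1.31 without SK-N-AS and 1.69 without SY5Y.

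INSM1 (hg19 chr20:20348748-20351593, plus strand) had 0.527 FPKM in Kelly, 1.74 in BE(2)-C, 4.40 in SK-N-DZ and 8.59 in CHP134, against 0.0114 in SY5Y and 0.484 in SK-N-AS. The groups did not overlap, but Kelly was only 1.09-fold above SK-N-AS. CHP134, low for PHOX2A, HAND1 and GATA2, was the highest line. The log2 fold change was 2.17 (SE 0.86, unadjusted p = 0.039 and adjusted p = 0.307 by limma), higher in 4 of 4 MYCN-amplified lines than in both others. The value depends on the 0.5 added before the logarithm, and was 1.17 with 2 added and 3.19 with an addition 4 times smaller. INSM1 passed the minimum of 1 FPKM through MYCN-amplified lines alone. The filter thus favoured a positive fold change, and the p is no support apart from it.

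**Figure D2:**
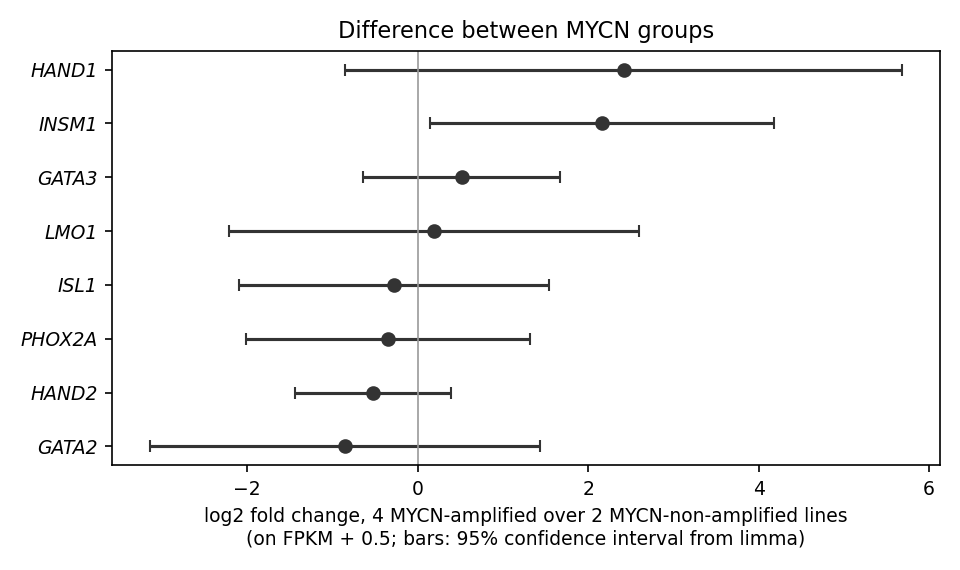
Log2 fold change of each factor, 4 MYCN-amplified lines over 2 MYCN-non-amplified lines, on FPKM + 0.5, with the 95% confidence interval of limma before adjustment. The interval of INSM1 (0.15 to 4.18) is the only one that leaves out 0, and that of HAND1 (-0.85 to 5.68) is the widest. INSM1 passed the minimum of 1 FPKM through MYCN-amplified lines alone, a filter that favours this direction.

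Line by line, SK-N-AS had the lowest value of 4 factors (HAND1, GATA3, ISL1 and LMO1), where it was lowest for 16.8% of loci. It was at least 4-fold under the next line for 0 factors, where it was for 0.451% of loci. CHP134 was at least 4-fold under the next line for 1 factor (GATA2), where it was for 0.389% of loci. SY5Y was highest for 3 factors (PHOX2A, HAND2 and ISL1), against 14.3% of loci, and Kelly for 3 (HAND1, GATA2 and LMO1), against 18.8%. The mean deviation of the 8 factors from their gene means was 0.67 log2 units in Kelly, 0.30 in SK-N-DZ, 0.20 in BE(2)-C and -0.63 in CHP134, against 0.55 in SY5Y and -1.10 in SK-N-AS. At least 1 FPKM was reached by 5 of 8 factors in SK-N-AS and by 7 or 8 in each of the other 5 lines. Of all 16223 named loci, 12093 reached it in SK-N-AS, and HAND1 missed it there at 0.931 FPKM. With 1 library a line, none of these line differences has a replicate check.

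**Figure D3:**
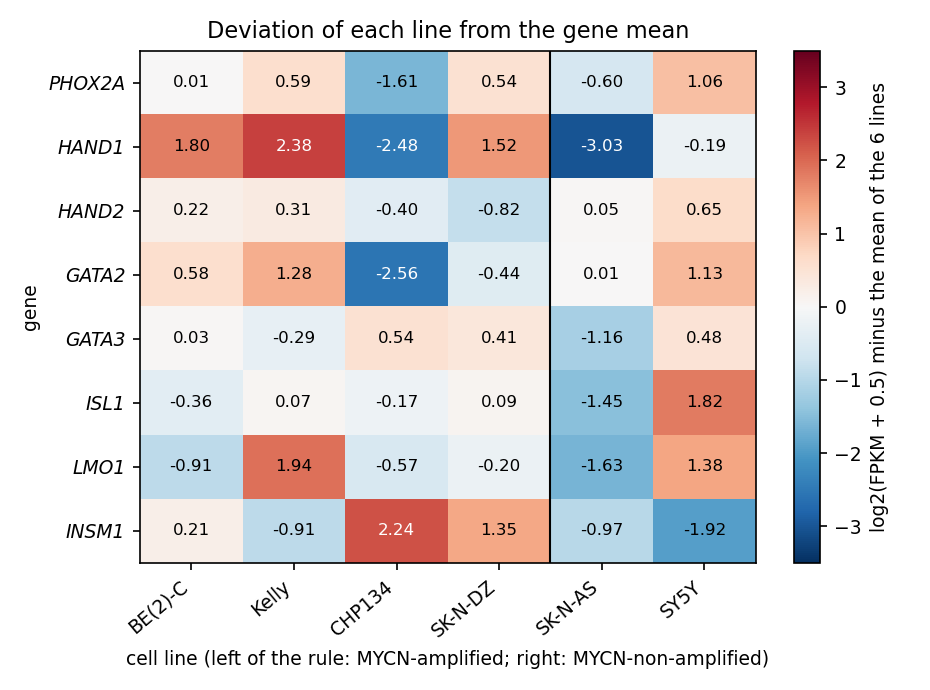
Difference of each line from the mean of the 6 lines for each factor, in log2(FPKM + 0.5), red above and blue below the mean, MYCN-amplified lines left of the rule. CHP134 is at -2.48 for HAND1 and -2.56 for GATA2 but 2.24 for INSM1, and SK-N-AS is at -3.03 for HAND1.

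Among the 28 pairs of factors, 20 had a positive Pearson r over the 6 lines on log2(FPKM + 0.5), with a median of 0.36. The highest r was that of PHOX2A and GATA2 (r = 0.85, Spearman's rho = 0.77), and the highest rho that of HAND2 and GATA2 (r = 0.70, rho = 0.89). INSM1 ran against GATA2 (r = -0.86, rho = -0.71) and against HAND2 (r = -0.85, rho = -0.77), whereas HAND1 and HAND2 were hardly related (r = 0.09, rho = 0.31). These are descriptions over 6 libraries, which share their scaling within a line. The loci most like each factor were sought in the same way among 3631 loci that varied at least 4-fold, and r is the best of that many values. HAND1 ran most closely with ICA1 (r = 0.99), CHCHD7 (0.98) and the clone-named locus RP11-264B14.1,RP11-264B14.2 (0.98). ICA1, an autoantigen of secretory vesicles, had 106 FPKM in Kelly, 84.8 in BE(2)-C, 49.0 in SK-N-DZ and 6.89 in CHP134, against 25.0 in SY5Y and 6.75 in SK-N-AS. It thus had the same order of lines as HAND1. The 3 loci nearest to GATA2 were ZNF615 (r = 0.996), RBM20 (0.98) and CALD1 (0.98), and those nearest to PHOX2A were ZNF350 (0.98), ZNF354C (0.97) and XXbac-BPG55C20.7 (0.97). For GATA3 they were RP4-773A18.4 (0.996), ZNF883 (0.98) and ZNF486 (0.98), and for HAND2 SDC1 (0.98), ABR (0.96) and ISOC2 (0.95). For ISL1 they were the CACNG4 locus (0.97), the BACH2 locus (0.97) and SYNGR3 (0.94), for INSM1 NECAB3 (0.97), EPB41L2 (0.97) and RP11-488C13.4 (0.95), and for LMO1 RPSAP47 (0.98), ZNF233 (0.965) and RP11-71H17.7 (0.96).

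Noncoding loci beside 5 of the factors were read next to them. They carry clone names in the table and were chosen after their values had been seen. The locus RP11-471J12.1 is listed in the same span as HAND2, where GENCODE 44 on hg19 places HAND2-AS1 and 2 unnamed noncoding genes, and the table does not say which it is. It had 104 FPKM in Kelly, 110 in BE(2)-C, 52.9 in SK-N-DZ and 0.805 in CHP134, against 114 in SY5Y and 90.8 in SK-N-AS. In CHP134 it was at 0.910% of the HAND2 level, which was 88.5 FPKM there, and in the other 5 lines at 62.1% to 80.9%. The start of HAND2 whose upstream sequence is printed above lies 229 bases from a start of HAND2-AS1 on the other strand. HAND2-AS1 also shares 2960 bases with HAND2 in GENCODE, and another of its starts overlaps HAND2.

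At GATA3 the locus RP11-379F12.3,RP11-379F12.7, whose span equals that of GATA3-AS1 in GENCODE, had 4.55 FPKM in Kelly, 2.17 in BE(2)-C, 12.32 in SK-N-DZ and 14.8 in CHP134, against 11.2 in SY5Y and 1.12 in SK-N-AS. It was high in the 3 lines where GATA3 was highest (r = 0.89 over 6 lines). The nearest starts of GATA3 and GATA3-AS1 are 157 bases apart, but from GATA3 starts further upstream the genes overlap. GATA3-AS1 shares 3035 bases with GATA3 in GENCODE, the whole listed span of this locus. The deposited loci are separate, however, with GATA3 listed at hg19 chr10:8095566-8117161 and this locus at chr10:8092412-8095447. Without strand, reads of longer GATA3 transcripts in this locus cannot be told from those of GATA3-AS1. Their part in r was not tested. At ISL1 the locus CTD-2314G24.2, in a span where GENCODE has only ISL1-DT beside ISL1, had 2.53 FPKM in Kelly, 1.81 in BE(2)-C, 1.96 in SK-N-DZ and 0.886 in CHP134, against 9.16 in SY5Y and 1.48 in SK-N-AS. Both RNAs were highest in SY5Y (r = 0.84), and their starts are 116 bases apart.

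At GATA2 the locus RP11-475N22.4, in a span that GENCODE shares between GATA2 and GATA2-AS1, had 6.26 FPKM in Kelly, 5.08 in BE(2)-C, 10.6 in SK-N-DZ and 1.54 in CHP134, against 4.00 in SY5Y and 4.58 in SK-N-AS. Both genes were lowest in CHP134 (r = 0.58, rho = 0.26), and GATA2-AS1 shares 3990 bases with GATA2. The noncoding locus was highest in SK-N-DZ, where GATA2 (28.2 FPKM) was lower than in any other line but CHP134. At HAND1 the locus CTB-158E9.1 had 3.51 FPKM in Kelly, 1.56 in BE(2)-C, 4.20 in SK-N-DZ and 0 in CHP134, against 0.889 in SY5Y and 0.115 in SK-N-AS. It was listed at 0 in CHP134 and highest in the same 3 lines as HAND1 (r = 0.94). None of these 5 loci was called between the MYCN groups (limma adjusted p between 0.519 and 0.917). Without strand, reads of overlapping transcripts cannot be told apart.

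**Figure D4:**
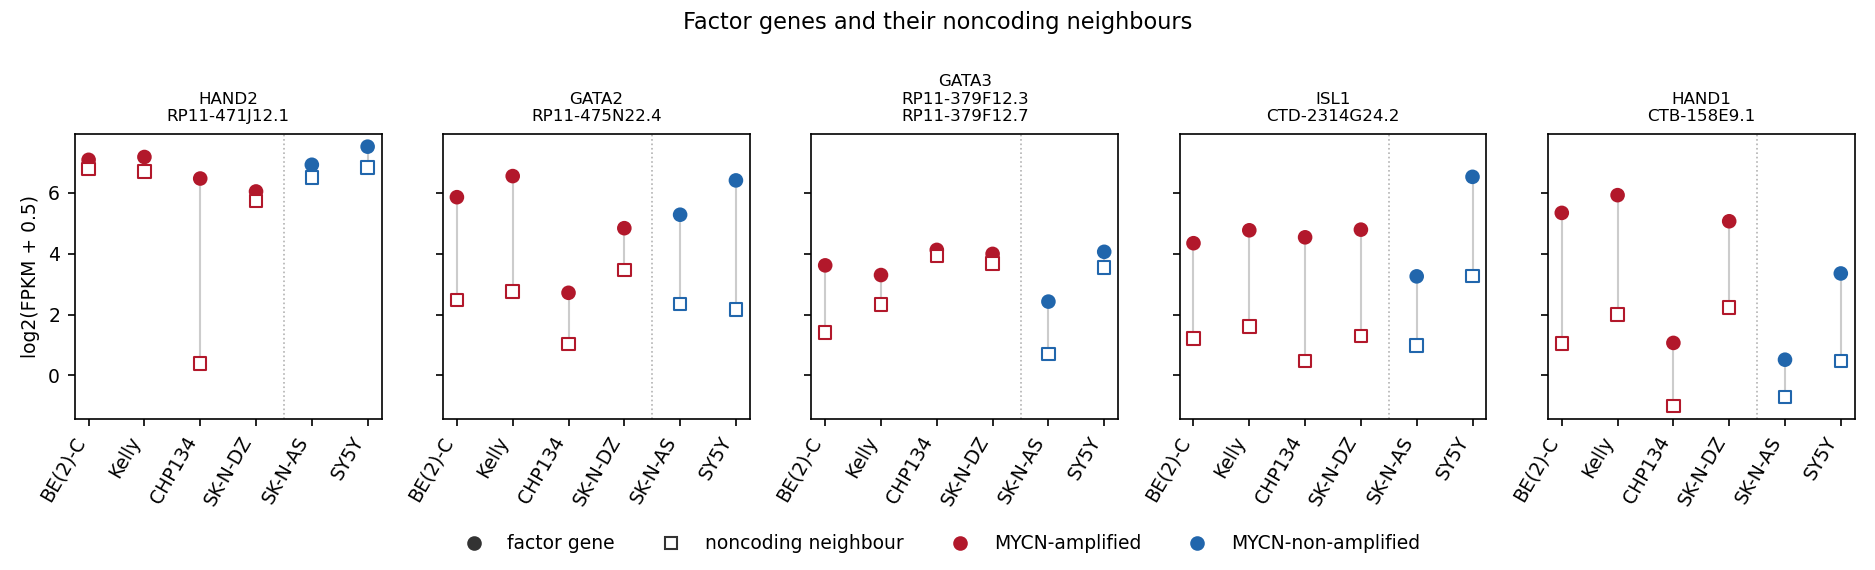
Log2(FPKM + 0.5) of 5 factor genes (filled circles) and their noncoding neighbours (open squares) in the 6 lines, MYCN-amplified in red and MYCN-non-amplified in blue. The gap between HAND2 and its neighbour is wide in CHP134, where the neighbour is at 0.805 FPKM, and narrow in the other 5 lines.

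Partners of the factors were read from lists of genes, and no locus of any list was called between the MYCN groups. Of 7 partners and inhibitors of HAND proteins, the median log2 fold change was -0.10 and 3 values were positive. TCF4, a dimer partner of HAND proteins, had 43.4 FPKM in Kelly, 72.9 in BE(2)-C, 30.3 in SK-N-DZ and 47.9 in CHP134, against 200.1 in SY5Y and 99.9 in SK-N-AS. The groups did not overlap, but its log2 fold change of -1.60 missed the adjusted threshold (limma adjusted p = 0.177). The next smallest p in that list was that of ID1, an inhibitor of helix-loop-helix dimers (log2 fold change -0.74, limma adjusted p = 0.616). Of 6 partners of LMO and ISL1 proteins, 4 were positive, with a median of 0.28. LDB1, the adaptor that dimerizes LIM proteins, stayed between 16.4 and 24.9 FPKM, whereas its relative LDB2 had 16.7 FPKM in Kelly, 15.6 in BE(2)-C, 0.646 in SK-N-DZ and 0.163 in CHP134, against 2.88 in SY5Y and 0.286 in SK-N-AS. SSBP2, which stabilizes LDB proteins, had a log2 fold change of -1.54 (limma adjusted p = 0.194), and SSBP3, of the same family, one of 0.96 (limma adjusted p = 0.409).

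Of 6 corepressors that work with INSM1, 5 were positive, with a median of 0.42. KDM1A, a histone demethylase, had 110 FPKM in Kelly, 55.1 in BE(2)-C, 102 in SK-N-DZ and 273 in CHP134, against 86.3 in SY5Y and 74.1 in SK-N-AS. Its highest line, CHP134, was also the highest for INSM1, RCOR2 (32.8 FPKM), HDAC1 (81.6 FPKM) and HDAC2 (93.0 FPKM). CHP134 was thus highest for 4 of the 6 corepressors, against 22.1% of loci. The other 2, RCOR1 and RCOR3, were highest in BE(2)-C. The smallest p among the corepressors were those of HDAC2 (log2 fold change 0.92, limma adjusted p = 0.362) and RCOR2 (1.02, limma adjusted p = 0.399). Both GATA cofactors were positive, with a median of 0.82, and ZFPM2 was at 0.0108 FPKM in SY5Y, against between 2.00 and 6.09 in the MYCN-amplified lines and 3.64 in SK-N-AS. Among 6 tested relatives of the factors 2 were positive, with a median of -0.62. INSM2, the paralog of INSM1, had 146 FPKM in Kelly, 83.6 in BE(2)-C, 41.6 in SK-N-DZ and 0.636 in CHP134, against 18.3 in SY5Y and 20.1 in SK-N-AS. CHP134 was thus the lowest line for INSM2 and the highest for INSM1. GATA4 had 4.40 FPKM in BE(2)-C and at most 0.0442 in the other MYCN-amplified lines, against 5.95 in SY5Y and 10.4 in SK-N-AS (log2 fold change -3.21, limma adjusted p = 0.215). LMO4 had the next smallest p (log2 fold change 1.95, limma adjusted p = 0.434).

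Among 17 loci of other adrenergic regulators, 8 were positive, with a median of -0.05. SOX4, an HMG-box factor of neural progenitors, had a log2 fold change of -1.47 (limma adjusted p = 0.274). TFAP2B was at 36.8 FPKM in SY5Y and listed at 0 in CHP134, and the locus of NEUROD1, merged with CERKL, was at 82.8 FPKM in CHP134 and at 2.33 or less elsewhere. Of 12 tested noradrenergic genes, 4 were positive, with a median of -0.65, and the smallest p were those of SCG3, a granin of secretory granules (log2 fold change 1.66, limma adjusted p = 0.299), and the receptor gene RET (-3.25, limma adjusted p = 0.314). The transporter gene SLC6A2 had 12.4 FPKM in Kelly, 23.2 in BE(2)-C, 5.33 in SK-N-DZ and 0.924 in CHP134, against 74.9 in SY5Y and 3.55 in SK-N-AS. CHP134 was the lowest line for 6 of the 13 noradrenergic genes (RET, SLC6A2, CYB561, DDC, SLC18A1 and DBH), against 13% of loci. It was the highest line for 0, against 22.1% of loci. It was the second highest for GCH1 (18.4 FPKM) and the third highest for SCG2 (39.1 FPKM), SLC18A2 (1.06 FPKM) and SCG3 (16.3 FPKM). Of 10 genes of sympathetic neuroblasts, 8 were positive, with a median of 1.17. DPYSL3 (log2 fold change -2.98, limma adjusted p = 0.124) and STMN4 (2.57, limma adjusted p = 0.186) had the smallest p. CHP134 was the highest line for 4 of these genes (ELAVL4, PRPH, RTN1 and ELAVL3), against 22.1% of loci. It was the lowest line for 0, against 13% of loci. Over all tested loci, too, CHP134 was more often the highest line than the lowest. SK-N-AS was the lowest line for 7 of the 10 genes (ELAVL4, ELAVL3, GAP43, NEFM, STMN2, NEFL and STMN4), against 16.8% of loci. The part of SK-N-AS in the median of 1.17 was not tested.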

How the data were processed

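RNA from 6 neuroblastoma lines was depleted of ribosomal RNA and sequenced in paired reads, 1 library each. The labels gave the line of each library and the study's methods its MYCN group. The authors aligned reads to hg19 with STAR and describe counting on Gencode genes and testing with edgeR. The deposited table instead holds assembled loci whose deposited values were taken for FPKM, a unit that the authors' file does not name. It cannot be told from the table how reads shared by overlapping genes were divided. Whole reads could not be recovered, so no count model was run here. Depth is unknown.

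Named loci (3067 of 16223 merge several genes) with at least 1 FPKM in at least 2 lines entered 1 model over all 6 lines, fitted to log2(FPKM + 0.5) by limma 3.58.1 (R 4.3.3, eBayes with a trend, no covariate). A fold change on this scale understates that of low genes. The p-values measure the spread between lines, which are single cultures. The 8 factors and the gene lists were chosen with earlier results of these data known. The text names all factors, their noncoding neighbours, the 3 loci most correlated with each factor, and from each list genes with small p. Genes such as LDB2, INSM2 and SLC6A2 were named after their values were seen. Start sites came from RefSeq on GRCh38.p14 and gene positions from GENCODE 44 on hg19. Pseudocount, filter, scaling, variance model, culture medium and each line in turn were varied. List genes without a locus of their name were not analysed here. Values of a few list genes are not reported here.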

Additional observations from a re-analysis of the deposited data

Results flagged for a closer look

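Among the 4 MYCN-amplified lines, RP11-471J12.1, the noncoding locus in the span of HAND2, lay far from the others in CHP134. The gap to the nearest line made up 0.837 of the whole range on log2(FPKM + 0.5), with 0.805 FPKM in CHP134 against 52.9 to 110 in the other 3 lines. The 8 factors and 5 noncoding loci were looked at in this way, and chance gives about 1 such value in 20. The locus was chosen after its values had been seen, and CHP134 has 1 library.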

How the results depend on the processing

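No factor was called under any of 15 alternative settings, which gave 119 values, 8 of them with the opposite sign. With DMEM lines alone, whose supplements differed, the log2 fold change of PHOX2A was 0.045 and that of LMO1 -0.43. Leaving out each line in turn gave -1.18 to 0.48 for PHOX2A, -0.30 to 1.33 for GATA3, -1.92 to 1.36 for ISL1 and -1.31 to 1.69 for LMO1. LMO1 was -0.43 without Kelly, and PHOX2A was 0.15 without CHP134. The sign was the same in every setting that tested them for HAND1 (0.9999 to 3.84), HAND2 (-0.82 to -0.23), GATA2 (-1.42 to -0.096) and INSM1 (1.17 to 3.19), but the sizes moved by over 1.5 times. INSM1 was not tested at a minimum of 5 FPKM.

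The number of loci called, 65 (18 higher and 47 lower in MYCN-amplified lines), varied between settings. It was 15 (8 and 7) once the pseudocount was made 4 times smaller, 11 (6 and 5) at a minimum of 5, 102 (85 lower) without a variance trend and 1 (1 and 0) with DMEM lines alone. Leaving out each line in turn gave 7 to 62 calls (5 to 18 higher and 2 to 44 lower). With SK-N-AS left out 7 loci were called (5 and 2), with SY5Y left out 14 (11 and 3), then 15 without SK-N-DZ (6 and 9), 18 without Kelly (7 and 11) and 24 without CHP134 (7 and 17). The cause of these shifts was not tested, beyond the fewer loci or lines in some settings. Quantile normalization moved the median log2 fold change of all loci by 0.13 and DMEM lines alone by -0.11. Factors that varied at least 16-fold numbered 2, against 3 with the smaller pseudocount, 1 with a pseudocount of 2, 1 with a minimum of 5 and 6 at 4-fold. Factors lowest in SK-N-AS numbered 0 at 4-fold and 1 at 2-fold. A count model was not run. No paired analysis was possible because replicate numbers were given in accession order and the lines share no culture or donor.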
